A study of Bos taurus with 12 samples.

Results

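The peptidylarginine deiminases are 5 neighbouring genes, PADI1, PADI2, PADI3, PADI4 and PADI6, and were followed here through every listed methylation value that carried one of their symbols. Of 196275 CpG cytosines in the deposited site table, 53 were assigned to the family: 16 to PADI1, 12 to PADI2, 13 to PADI3, 9 to PADI4 and 3 to PADI6. None of the 1227 deposited windows of 500 bases (tiles), of which 73.3% passed limma's adjusted test, was assigned to it. Whole-blood DNA came from 12 dairy cows (Bos taurus) kept under the same conditions on the farm. The MSG group held 6 cows culled within 1 year for complications of mastitis, an inflammation of the udder, that had not been found at sampling. The MRG group held 6 cows of similar age still in the herd. The comparison asks whether blood methylation differed before the disease took its course.

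Peptidylarginine deiminases convert arginine residues in proteins to citrulline, a calcium-dependent reaction that removes a positive charge. PADI4 is expressed in granulocytes. It citrullinates histones in the nucleus, and this loosening of chromatin is a known step in the release of neutrophil extracellular traps, the DNA webs with which neutrophils hold bacteria. Methylation of cytosines near a gene's start is commonly associated with silencing, whereas the meaning of methylation in introns and between genes varies from place to place.

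Values are percentages of reads in which a cytosine was read as methylated, 1 value per cow, given as mean ± SD. The depth behind each percentage is unknown, and the cow-to-cow spread is the error used throughout. Each SE is limma's, in which the variance of a site is drawn towards that of all sites. It therefore varies less between sites than the SD does. The authors had listed a site only if its difference reached 25 points and its q-value was at most 0.01 in these same cows. A difference between the groups was therefore a condition of being listed, and the retest below describes spread and is not independent evidence. A shift in blood cell makeup cannot be told apart from a shift within a cell type, and the labels gave no blood cell count or batch.

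Methylation at most PADI sites was lower in the cows that were later culled. Of the 53 sites, 43 (81.1%) were lower in MSG, against 47.3% of all listed sites, and 10 were higher. The median difference was -37.5 points over the PADI sites and 22.7 points over all listed sites. These medians follow the share of sites in each direction and do not compare sizes. Lower sites differed by -40.5 points on average in the family and by -33.8 over all listed sites. Higher sites differed by 28.7 and 33.5 points. Without MSG replicate 5 the lower sites differed by -33.1 points in the family and by -34.3 over all listed sites. The wider gap at the family's lower sites thus rested on that cow. Over the 43 lower sites, MSG cows averaged 37.6% ± 22.7 and MRG cows 78.2% ± 6.15 (SD, n = 6 each). Over the 10 higher sites the means were 91.5% ± 8.77 and 62.7% ± 9.32. Neighbouring sites share cows and often reads, so the 53 sites are not 53 independent observations.

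The MSG cows differed widely from each other. Over the 43 lower sites MSG replicate 5 averaged 0.474% and MSG replicate 3 averaged 72.1%. The other MSG cows were close together, at 39.7%, 38.7%, 35.3% and 39.4% for replicates 1, 2, 4 and 6. The MRG cows lay between 69.8% and 85.8%, with a median of 80.4%. Thus 5 of 6 MSG cows were below every MRG cow, and MSG replicate 3 lay inside the MRG range. These sites were listed and sorted by direction in the same cows, so a gap between the groups was built in. Over all listed lower sites all 6 MSG cows (32.5% to 41.4%) were below every MRG cow (66.0% to 73.4%).

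**Figure D1:**
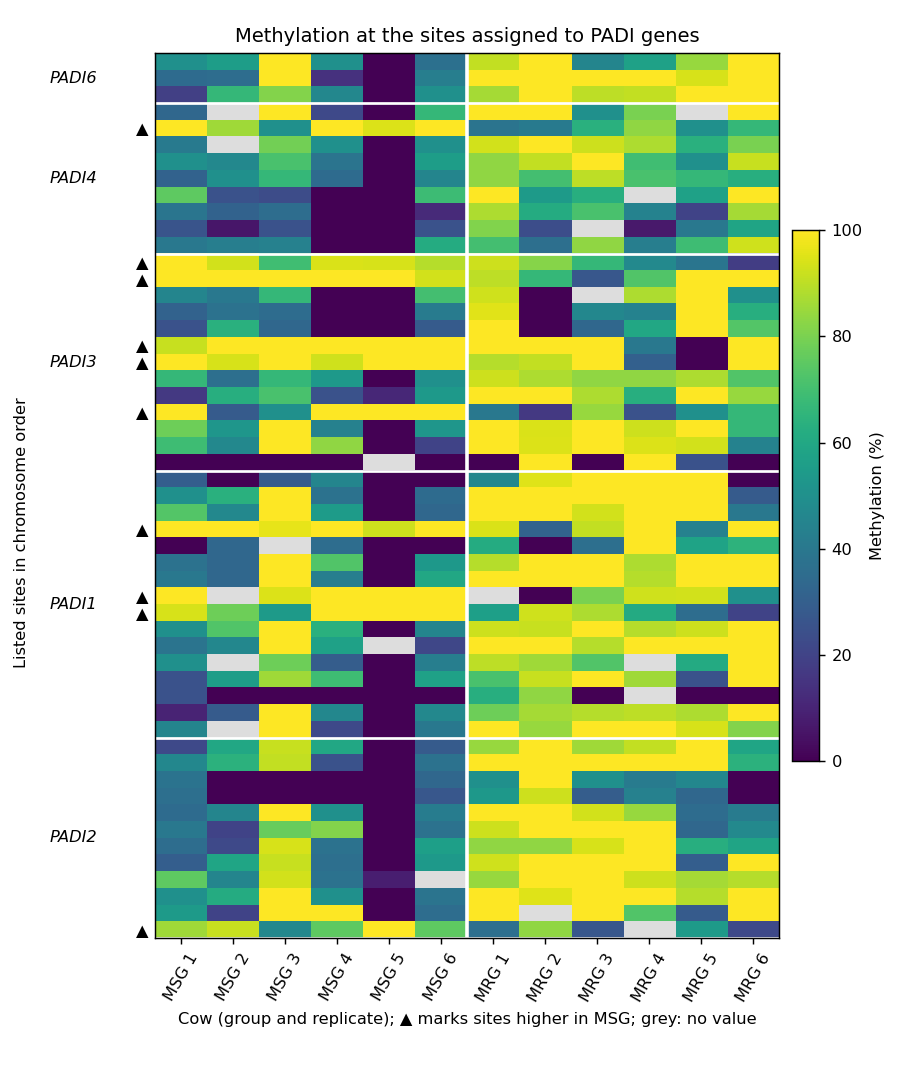
Percent methylation (colour scale, 0 to 100%) at the 53 sites assigned to PADI genes, in chromosome order from top to bottom, for 6 MSG and 6 MRG cows; triangles mark the 10 sites higher in MSG, and grey cells have no value. The column of MSG 5 is at or near 0 at the lower sites and at 92.3% or more at the 10 higher ones.

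MSG replicate 5 was at exactly 0 at 39 of the 41 lower PADI sites at which it had a value. At 27 of these 39 sites no other cow was at 0. The same cow was at 0 at 34.7% of all listed sites lower in MSG, against 95.1% at PADI sites. MSG replicate 4 was at 0 at 11 of 43 lower PADI sites, and no other cow was at 0 at more than 5. At the 10 sites higher in MSG, replicate 5 was never at 0 and its lowest value was 92.3%. Whether differences in the cows' DNA sequence at these sites enter these values was not tested.

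**Figure D2:**
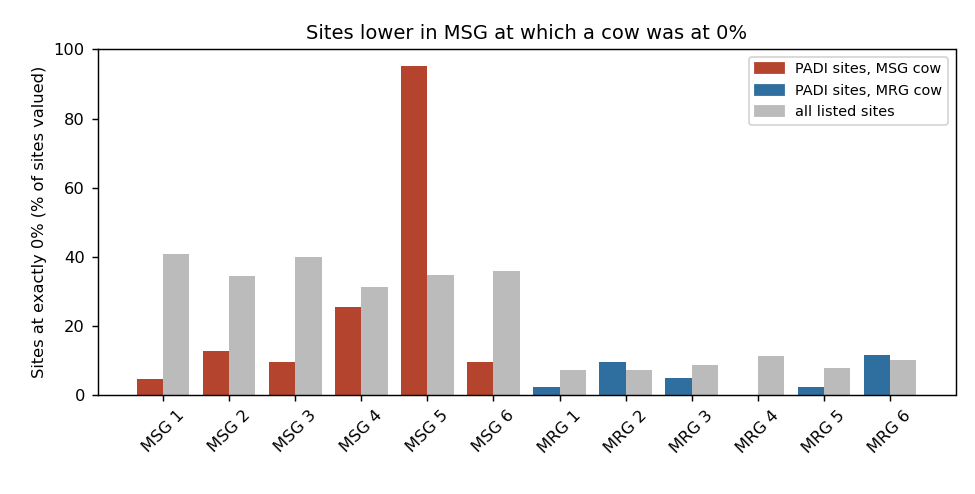
Share of sites lower in MSG at which each cow was at exactly 0% (vertical axis, percent of sites with a value), for PADI sites (red, MSG; blue, MRG) and all listed sites (grey). MSG 5 reached 95.1% at PADI sites against 34.7% over all listed sites.

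None of the 53 PADI sites passed the test across all sites (limma, Benjamini-Hochberg adjustment, lowest adjusted p = 0.0781), as none of the 196275 did (0.0%). At an unadjusted p under 0.05 limma counted 40 PADI sites (75.5%), against 51.9% of all sites. The exact permutation test, adjusted in the same way, passed 0 PADI sites and counted 31 (58.5%) unadjusted, against 35.5% of all sites. When MSG replicate 5 was left out, the unadjusted limma count became 17 of 53 (32.1%), against 46.6% of all sites in that setting. The mean difference over the 43 lower sites was -33.1 points in that setting in place of -40.5. Over all listed lower sites it was -34.3 in place of -33.8. Each of the 43 sites kept a lower MSG mean, but this does not test the direction. The sites were listed for a wide gap in these same cows, too wide for leaving out MSG replicate 5 to reverse.

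The groups' cows did not overlap at 3 of the 53 sites (5.66%), against 2.36% of all listed sites. The 3 sites were 1 each of PADI6, PADI3 and PADI1, the last being higher in MSG. Without MSG replicate 3 the count was 17 (32.1%), of which 15 were lower in MSG, against 3.90% of all listed sites. Leaving out any of the other 11 cows gave 3 to 6.

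**Figure D3:**
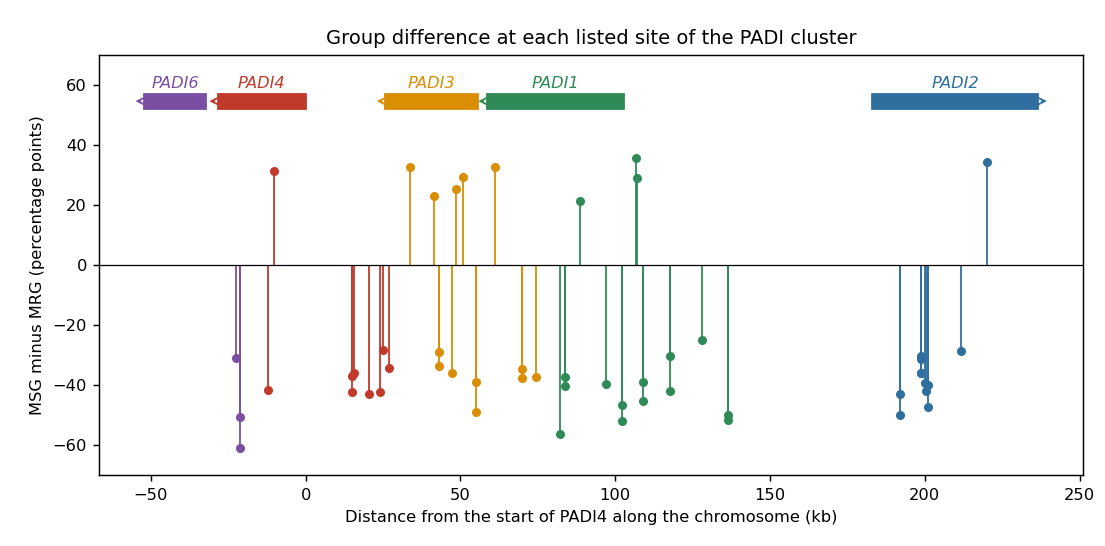
Difference between group means (MSG minus MRG, percentage points) at each of the 53 sites against distance from the start of PADI4 in kb; bars above show the gene limits, arrows the direction of transcription, and colours the gene each site was assigned to. Lower sites occur along the whole cluster, with the 10 higher sites scattered among them.

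The family lies on chromosome 2 (ARS-UCD1.2) in the order PADI6, PADI4, PADI3, PADI1 and PADI2. The first 4 are on the reverse strand and PADI2 is on the forward strand. The 53 sites spanned 243 kb and fell on 39 CpGs. Symbols followed the nearest gene start rather than the gene that holds the site. By the deposited gene limits, 12 sites lay inside PADI2, 11 inside PADI1, 10 inside PADI3, 5 inside PADI4, 0 inside PADI6 and 15 between genes. Introns held 30 sites, of which 24 were lower in MSG, and intergenic sequence held 15, of which 13 were lower. All 4 promoter sites were lower, and these were both strands of 1 CpG of PADI3 and 1 CpG of PADI1. Exons held 3 sites, of which 1 was lower, and the 1 site in a 3' untranslated region was lower. Over all listed sites the lower shares of these classes ran from 45.6% (promoter) to 49.9% (exon).

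PADI4 (ENSBTAG00000012052, chromosome 2, 135262232 to 135290548) had 8 lower sites and 1 higher site. Over the lower sites, MSG averaged 32.9% ± 20.6 and MRG 71.1% ± 14.4 (SD, n = 6 each). Cow means ran from 0% to 55.5% in MSG, with a median of 37.8%, and from 52.3% to 87.3% in MRG, with a median of 72.8%. Only MSG replicate 3 reached into the MRG range. No PADI4 site lay closer than 10.1 kb to the gene's start, so promoter methylation of this gene was not among the listed values.

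Inside PADI4 itself, 2 of its own sites and all 3 sites assigned to PADI6 were found. In intron 6 the site at 135278332 averaged 44.4% ± 39.3 over 5 MSG cows and 86.0% ± 21.9 over 5 MRG cows. In intron 5 the site at 135280404 went the other way. Its MSG values had a low of 50%, a median of 97.4% and a high of 100%, and its MRG values a low of 38.5%, a median of 56.8% and a high of 83.3%. There MSG replicate 3 was the low cow of its group, and the other 5 MSG cows were above every MRG cow. The difference was 31.2 ± 15.5 points (SE), with an adjusted p of 0.0952 in limma's test.

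Upstream of PADI4, 6 intergenic sites between 14.9 and 24.9 kb from its start were all lower in MSG. The largest difference was -42.9 ± 16.95 points (SE) at 135311069. MSG cows there had a low of 0%, a median of 24.0% and a high of 75%, and MRG cows a low of 54.5%, a median of 62.5% and a high of 100% (n = 5). At 135314671 the MSG values ran from 0% to 38.9% (median 21.5%) and the MRG values from 20% to 87.5% (median 66.5%). Both groups overlapped at both sites, and the adjusted p values were 0.0838 and 0.0825 (limma). From 135311069 on, through the last 4 sites assigned to PADI4, MSG replicate 4 joined replicate 5 at exactly 0. The last of these, at 135317327, lay in the 3' untranslated region of PADI3.

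PADI6 encodes the oocyte and early embryo member of the family. Its 3 sites lay 9.635 to 10.9 kb upstream of its start (gene limits 135238391 to 135258340), in introns 10 and 11 of PADI4. They had the widest mean gap of the family, with 43.5% ± 30.4 in MSG and 91.1% ± 8.87 in MRG. Both cytosines of the CpG at 135269219 and 135269220 were listed. On the forward strand, MSG values had a low of 0%, a median of 35.4% and a high of 100%, and 5 of 6 MRG cows were at 100% with the sixth at 93.8%. That difference was -61.0 ± 15.8 points (SE, limma adjusted p = 0.0781, exact permutation p = 0.0152 unadjusted and 0.117 adjusted).

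On the reverse strand of the same CpG the groups did not overlap. MSG values ran from 0% to 81.3% and MRG values from 86.7% to 100%, for a difference of -50.8 ± 15.7 points (SE, limma adjusted p = 0.0781). The exact permutation p was 0.00216, the smallest that 6 against 6 cows can give, and 0.110 after adjustment over all sites. Lack of overlap fixes the unadjusted value, so it adds nothing to the ranges. MSG replicate 3 was the highest of its group on both strands.

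PADI3 (ENSBTAG00000012043, 135316332 to 135346269) citrullinates trichohyalin in the hair follicle. It had the most mixed sites of the 5 genes, 8 lower and 5 higher in MSG. The lower sites averaged 35.0% ± 19.5 in MSG cows and 72.0% ± 13.5 in MRG cows, and the higher sites 93.0% ± 7.39 and 64.5% ± 19.0. Averaged over all 13 sites, the 2 directions partly cancelled, to 57.8% ± 9.27 and 69.2% ± 7.59, a difference of -11.4 points. With 1 value per CpG in place of 1 per strand, PADI3 had 5 lower and 5 higher CpGs and a mean difference of -3.17 points.

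Close to the start of PADI3, both cytosines of a CpG 0.792 and 0.793 kb inside the gene were lower in MSG. At 135345476 MSG cows had a low of 0%, a median of 51.9% and a high of 66.7%. MRG cows had a low of 72.7%, a median of 85.4% and a high of 92.3%, so the groups did not overlap. The difference was -38.9 ± 15.5 points (SE, limma adjusted p = 0.0840). The exact permutation p was the 0.00216 that lack of overlap fixes, and 0.110 after adjustment. At the partner cytosine, 135345477, MSG values ran from 11.1% to 71.4% and MRG values from 62.5% to 100%, a difference of -49.0 points. It was 1 of only 2 lower PADI sites at which MSG replicate 5 had a value above 0.

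At the exon sites within PADI3 that were higher in MSG, all MSG cows were high and the MRG cows were spread out. In exon 2, at 135338986, MSG cows lay between 91.7% and 100%, while MRG replicate 5 was at 0%, MRG replicate 4 at 40% and the remaining 4 MRG cows at 100%. In exon 6, at 135331869, the MSG range was 93.3% to 100% and the MRG range 27.3% to 100%. In intron 11, at 135324344, the MSG median was 93.5%, MSG replicate 3 being lowest at 69.2%, and the MRG median 56.9%, with a difference of 32.5 ± 15.6 points (SE, limma adjusted p = 0.0927). The largest upward difference among its sites, 32.6 ± 16.2 points (SE, limma adjusted p = 0.0953), was at 135351871 and lay within intron 15 of PADI1.

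Another site assigned to PADI3, at 135364841 in exon 9 of PADI1, was at 0% in all 5 MSG cows with a value. MRG replicates 2 and 4 were at 100% there, MRG replicate 5 was at 25% and the remaining 3 MRG cows were at 0%.

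PADI1 (ENSBTAG00000002138, 135349139 to 135393383) acts in the epidermis, where it citrullinates keratins and filaggrin. It had 13 lower and 3 higher sites. The lower sites averaged 39.1% ± 26.4 in MSG and 82.7% ± 8.09 in MRG. Cow means in MSG were 36.5%, 37.6%, 82.7%, 44.4%, 0% and 33.5% for replicates 1 to 6, and those in MRG ran from 70.3% to 94.6%. MSG replicate 3 was again the only MSG cow inside the MRG range.

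The promoter CpG of PADI1 lay 0.6 kb inside the gene and was listed on both strands, at 135392782 and 135392783. On the reverse strand MSG cows were at 40%, 33.3%, 100%, 42.9%, 0% and 60% for replicates 1 to 6, and 5 of 6 MRG cows were at 100% with the sixth at 88.9%. The groups overlapped through MSG replicate 3 alone. The difference was -52.1 ± 15.8 points (SE) with an adjusted p of 0.0781 (limma). The exact permutation p was 0.0152 unadjusted and 0.117 adjusted. The forward strand gave -46.6 points with an adjusted p of 0.0802 (limma).

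The largest difference of PADI1 was in intron 1, at 135372568, with -56.2 ± 16.5 points (SE, limma adjusted p = 0.0781). MSG values ran from 0% to 45.5% (median 14.3%) and MRG values from 0% to 100% (median 97.6%). Upstream of the gene, 9 intergenic sites reached as far as 33.7 kb from the start, of which 7 were lower. At 135397327 the groups did not overlap in the opposite direction. MSG values there lay between 94.7% and 100% and MRG values between 0% and 93.3% (n = 5 each). Lack of overlap fixes the exact permutation p at 0.00794 for these cows, and it was 0.117 after adjustment.

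PADI2 (ENSBTAG00000003403, 135473410 to 135527194) is the most widely expressed member and citrullinates myelin basic protein in the nervous system. All 12 of its sites lay inside the gene in introns, 10 of them in intron 1, and 11 were lower in MSG. The lower sites averaged 39.6% ± 24.0 in MSG and 78.7% ± 15.7 in MRG. The largest difference, at 135482660, was -50.1 ± 15.9 points (SE, limma adjusted p = 0.0789), with MSG from 0% to 90.9% and 5 of 6 MRG cows at 100%. The next, at 135491438, was -47.3 points (limma adjusted p = 0.0795), where MRG cows lay between 88.9% and 100%. The single higher site, at 135510555 in intron 6, had a median of 80.4% in MSG and 36.4% in MRG.

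**Figure D4:**
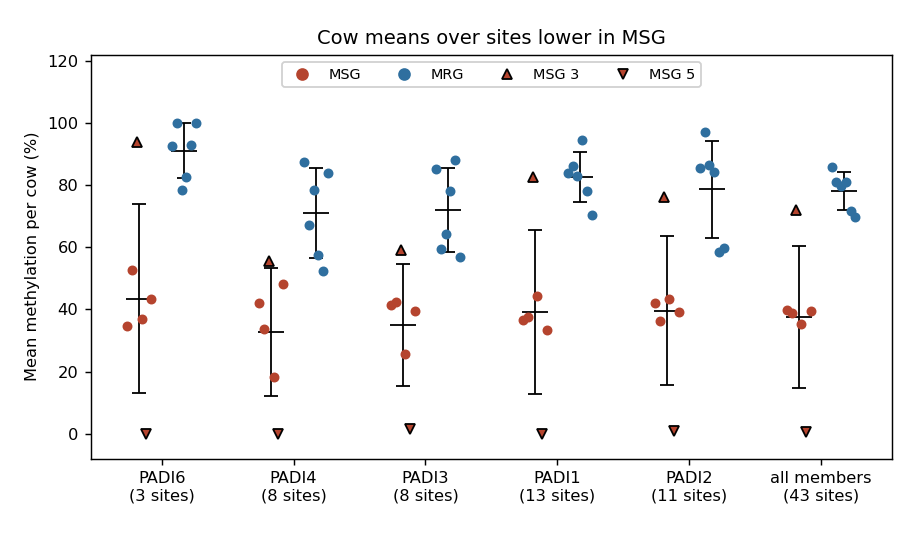
Mean methylation per cow (percent) over the sites of each gene that were lower in MSG, for MSG (red) and MRG (blue) cows; black marks give the group mean and SD, n = 6. In every gene MSG 5 (downward triangle) is near 0 and MSG 3 (upward triangle) is the highest MSG cow.

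The 5 genes shared the lowest and the highest MSG cow, while the order of the other 4 MSG cows varied between genes. MSG replicate 5 was the lowest and MSG replicate 3 the highest MSG cow over the lower sites of every gene. At 30 of the 43 lower sites MSG replicate 3 was the highest, alone or tied. The MRG cows had no common lowest cow, the lowest over the lower sites being replicate 3 for PADI6, replicate 5 for PADI4 and PADI2, and replicate 6 for PADI3 and PADI1. The profiles of PADI1 and PADI2 over the 12 cows were the closest pair within the family with 5 or more lower sites, differing by 6.45 points on average. The other pairs differed by 11.5 to 15.1 points.

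A cow at exactly 0 occurred at 43 of the 53 sites, against 78.3% of all listed sites. These were 40 of the 43 lower sites, against 80.4% of all lower sites, and 3 of the 10 higher sites, against 76.4% of all higher sites. The 10 sites with no cow at 0 were 3 lower and 7 higher ones. Fitted among the 42667 such sites alone, 8 of these 10 passed limma's adjusted test, with adjusted p values of 0.0233 to 0.0400, as did 73.1% of all such sites. The 8 included the lower PADI3 promoter site at 135345477, the PADI4 intron 5 site and the higher sites of PADI3 at 135324344 and 135351871 and of PADI2 at 135510555.

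The others that passed were 1 higher and 1 lower site upstream of PADI1 and 1 lower site in intron 1 of PADI2. The higher one, at 135397719, averaged 87.7% ± 18.4 in MSG cows and 58.9% ± 28.4 in MRG cows. The lower one upstream of PADI1, at 135399383, averaged 52.6% ± 29.5 over 5 MSG cows, MSG replicate 5 having no value, and 98.1% ± 4.54 over 6 MRG cows. At 135491437 in PADI2 the means were 51.9% ± 33.2 and 92.1% ± 6.64, with MSG replicate 5 at 8.33%. The 2 that did not pass were higher in MSG, the PADI3 exon 6 site and the PADI1 intron 1 site at 135379342 (98.1% ± 3.22 against 76.8% ± 30.7).

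Both strands were listed for 14 of the 39 CpGs, all 14 lower in MSG on both. Averaged over cows, the strands of a CpG differed by 4.29 to 17.4 points, with a median of 10.2 points. Of the cow values at these CpGs, 17 were at 0 on both strands and 2 on a single strand. The 10 higher sites were each listed on a single strand.

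The pattern of MSG replicate 5 did not stop at the family. Within 500 kb on the low-coordinate side it was at exactly 0 at 165 of 168 listed lower sites (98.2%), and on the other side at 109 of 113 (96.5%). Between the PADI1 and PADI2 sites, 27 sites without a gene symbol held 26 lower sites, with MSG replicate 5 at 0 at 25. MSG replicate 3 averaged 75.6% and 65.9% over the lower sites of the low and high flanks, and MSG replicates 1, 2, 4 and 6 averaged 29.5% to 43.7%. The share of lower sites, 81.1% in the family, was 48.3% in the low flank and 64.4% in the high flank. These shares varied by step of 50 kb. They were 86%, 86.5% and 100% over the 150 kb just below the first PADI site, and 96.3% between the PADI1 and PADI2 sites. Further below, steps ran from 6.52% to 100%. From 250 to 500 kb above the first PADI site they ran from 31.25% to 95%, and from 500 to 750 kb from 0% to 85.7%. A high share of lower sites was thus not particular to the family.

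**Figure D5:**
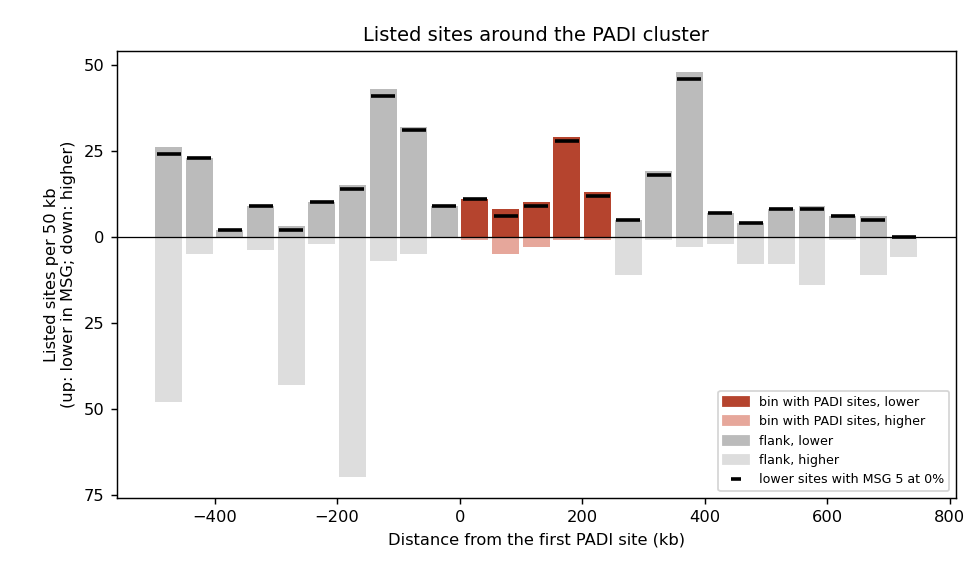
Number of listed sites per 50 kb against distance in kb from the first PADI site, with sites lower in MSG drawn upward and sites higher in MSG downward; red bins hold PADI sites, and black dashes give the lower sites at which MSG 5 was at exactly 0%. The dashes sit at or just under the top of the upward bars in the family and both flanks.

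Counted in steps of 1 Mb from the first PADI site towards lower coordinates, MSG replicate 5 was at 0 at 98.2%, 95.6%, 96.2% and 90.97% of lower sites, then at 70.5%, 7.64%, 16.3% and 37.5%, against 34.7% of all listed lower sites. In the 1 Mb that follows the first PADI site the share was 88.3%. The nearest listed tile, assigned to IGSF21, lay 749 kb from the family and averaged 56.5% ± 21.7 over the MSG cows and 85.8% ± 14.8 over the MRG cows.

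The genes whose 12 cow means were most like those of a PADI gene were in part its neighbours on chromosome 2, in part genes of other chromosomes. Likeness was the mean absolute difference in points between the cow means of a PADI gene's lower sites and those of another gene with 5 or more sites of a single direction. For PADI1 the closest of 7086 such profiles were RCC2 (4.90 points), ARHGEF10L (5.31) and IGSF21 (6.31), all on chromosome 2, against a median of 37.2 points. Profiles of sites higher in MSG were among the 7086, so this is not the median of lower profiles alone. For PADI2 they were PADI1, MIR29E on chromosome 16 (7.12) and ARHGEF10L (7.48). For PADI3 they were SDHB on chromosome 2 (7.66), whose first site lay at 135513728 within the limits of PADI2, TMEM67 on chromosome 14 (8.24) and SNX20 on chromosome 18 (9.11). PADI4 was closest to CACHD1 on chromosome 3 (9.05) and to C4H7orf57 (9.13) and UPP1 (9.46) on chromosome 4.

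Other genes of the pathway went both ways. Of 30 genes of neutrophil extracellular trap formation, 16 had a listed site, with 88 of 137 sites higher in MSG and 49 lower. The lower share was 35.8%, against 47.3% of all listed sites. MPO, the granule peroxidase, had 9 of 10 higher (82.8% ± 3.67 in MSG, 57.7% ± 30.7 in MRG). DNASE1L3, which degrades extracellular DNA, had 14 of 15 lower (48.4% ± 27.4 against 85.1% ± 16.8). No site of these genes passed limma's adjusted test, and 78 (56.9%) had an unadjusted p under 0.05, close to the 51.9% of all listed sites.

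Genes of citrullination substrates had 49 of 78 sites higher in MSG, over 10 of 20 genes, while 10 genes had no listed site. TCHH, which encodes trichohyalin, had 1 site, with an MSG mean of 64.8% ± 11.5 and an MRG mean of 25.5% ± 9.56. MBP had 2, averaging 16.8% ± 22.5 and 46.5% ± 36.3. Arginine and citrulline metabolism had 206 of 282 sites lower, over 13 of 23 genes, among them 80 of 119 sites of arginase 1 (ARG1) and 34 of 39 of the neuronal nitric oxide synthase gene NOS1. Early embryo genes had 14 of 22 sites lower. The lower shares were 37.2% for substrates, 73.0% for metabolism and 63.6% for early embryo genes, against 47.3% of all listed sites. Sites of 1 gene are often neighbours and are not independent. None of these sites passed limma's adjusted test, and the shares with an unadjusted p under 0.05 were 55.1%, 62.4% and 40.9%, against 51.9% of all listed sites. Of 4 tiles assigned to the metabolism genes 2 passed limma's adjusted test, against 73.3% of all tiles. MSG replicate 5 was at 0 at 4 of 48 lower sites of the trap genes, 15 of 29 of the substrates and 30 of 202 of the metabolism genes.

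Blood cell marker genes were counted beside these results, since the sample was whole blood. Neutrophil markers had 14 sites in 3 of 13 genes, of which 4 were lower in MSG. MPO held 10 of these sites, 9 of them higher, while 2 of 3 sites of CXCR1 and the 1 site of CEBPE were lower. The share of lower sites was 37.3% for monocyte, 28.8% for T cell, 29.4% for B cell and 29.5% for NK cell markers. It was 55.3% for erythroid and platelet and 5.80% for eosinophil markers, against 47.3% of all listed sites. Single genes made up most of some lists, with GYPC at 162 of the 188 erythroid and platelet sites and IL5RA at 68 of the 69 eosinophil sites. MSG replicate 5 was at 0 at 89 of 99 lower sites of the erythroid and platelet markers, 15 of 19 of the monocyte markers and 0 of 4 of the neutrophil markers. S100A8, S100A9, CSF3R and CXCR2 had no listed site. The part of cell makeup in the PADI values was not tested.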

How the data were processed

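Percent methylation per cow was deposited by the authors in a table of sites and a table of tiles, per the file headers, after enzymatic conversion of blood DNA, per the labels' protocols. The authors also deposited a p-value and q-value per row, and a difference score in percentage points. The submitters' processing notes name fastp 0.23.1, Bismark, DRAGEN, ChIPseeker 1.32.1 and ARS-UCD1.2; the differential test is not given in the sources used here. Both tables hold rows past the authors' thresholds, so other sites were not analysed here. The names of another 36 columns did not say which cow each belonged to; they were left out, so depth stayed unknown and percentages were tested instead of reads.

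The group difference was fitted over all rows of a table using limma 3.58.1 (R 4.3.3; no covariate, two-sided, Benjamini-Hochberg, threshold 0.05), and 899 of 1227 tiles (73.3%) passed. An exact permutation test over 924 regroupings was the alternative. Code was tested on simulated data. Replicate numbers follow record order and pair no cows, and that the records are separate cows is taken from the series' design text.

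Members and gene lists were chosen with earlier results of these data known. All 5 genes were named, with every promoter site and every site without overlap or without a cow at 0, and the 2 largest differences of each gene and direction. Values of further sites (the intron 6 site of PADI4 and the exon 2 and exon 9 sites assigned to PADI3), and the example genes of the pathway lists, were chosen after their values were seen. Symbols came from the deposited tables; the 5 matched the names table of ARS-UCD2.0.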

Additional observations from a re-analysis of the deposited data

Results flagged for a closer look

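Among 70 groups of 5 or 6 cow values examined, 9 held a cow far from its group by Dixon's test at its 95% critical value. Chance alone gives about 1 in 20 groups if groups are independent and values normally distributed. These groups share cows and sites, and their values stop at 100%, so the 9 cannot be judged against that rate. Averaged over all PADI3 sites, MRG replicate 1 stood at 84.0%, above the 64.1% to 69.1% of the other MRG cows. MSG replicate 3 stood low at 135280404 of PADI4 (50%, others 85.7% to 100%) and at 135324344 of PADI3 (69.2%, others 88.9% to 100%).

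At 6 sites a single cow stood apart because all others of its group were at 100%. These were MRG replicate 5 at the PADI6 site 135269219 (93.8%), MSG replicate 6 at the PADI3 site 135331869 (93.3%) and MRG replicate 4 at the PADI1 site 135392783 (88.9%). The others were MSG replicate 3 at the PADI1 site 135397327 (94.7%), MRG replicate 3 at the PADI1 site 135399383 (88.9%) and MRG replicate 6 at the PADI2 site 135482660 (64.3%).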

How the results depend on the processing

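With only rows at which no cow was at exactly 0, 10 PADI sites were left, 3 lower and 7 higher in MSG, and 8 passed limma's test adjusted over such rows, as did 31207 of 42667 (73.1%). The share higher was then 70% for the family, 100% for PADI4 (1 site), 75% for PADI3 (4 sites), 66.7% for PADI1 (3 sites) and 50% for PADI2 (2 sites). The mean difference over all sites turned from -27.3 to 7.33 points for the family, from -30.3 to 31.2 for PADI4, from -11.4 to 9.71 for PADI3 and from -30.4 to 3.92 for PADI1, and was -4.99 in place of -33.4 for PADI2. This setting removes 40 of the 43 lower sites by construction, since MSG replicate 5 was at 0 at 39 of them. The unadjusted count, an alternative chosen after seeing the data, was 8 of 10 in this setting, against 83.6% of all such rows. With 1 value per CpG the mean difference was -22.1 points for the family and -3.17 for PADI3.

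With differences of at least 40 points, the share higher was 0% for the family and for PADI4, PADI3, PADI1 and PADI2, and the mean differences were -47.4 for the family, -49.0 for PADI3 and -49.7 for PADI1. With all 12 cows valued, the share for PADI2 was 0%. Over all tiles the exact permutation test passed 213 and a threshold of 0.01 passed 0.

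With 1 cow left out at a time, the shares higher did not move (18.9% for the family) and no PADI site passed limma's adjusted test. The unmoved shares do not test the direction, since the listed gaps were too wide for the loss of any cow to reverse. The family's mean difference ran from -32.3 to -21.7 points. The unadjusted count ran from 17, with MSG replicate 5 left out, to 43, with MSG replicate 3 left out, and the sites without overlap from 3 to 17, both chosen after seeing the data. The limma counts ran from 0 to 74 over all sites (1 if MSG replicate 4 and 74 if MSG replicate 6 was left out) and from 397 to 797 over all tiles. No paired analysis was possible because the labels give no replicate numbers.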
